A study of Mus musculus with 6 samples.

Results

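The early neuronal genes examined here are 10 genes that young neurons switch on: Elavl2, Elavl3 and Elavl4 of the ELAVL family, Dcx and Dclk1 of the doublecortin family, the growth cone genes Gap43 and Rufy3, the cytoskeletal genes Tubb3 and Map2, and Vxn. They were matched by gene symbol to the array's probe annotation, which held 14 probes for these 10 genes among 19321 named genes, 17390 of which were bright enough to be tested. The 10 genes were chosen by their function and by their measured spot intensities in this same comparison, Chd7 KD against Control, so their own changes are given below as a description and support no further statement. The cells were oligodendrocyte precursors, glial progenitors whose descendants make myelin. They were taken from forebrains of Jcl:ICR mouse embryos at E15.5, kept in FGF2 and PDGF-AA, which hold them in the precursor state, and infected with a retrovirus. In 3 samples (Control) this was the control retrovirus and in 3 samples (Chd7 KD) a retrovirus that knocks down Chd7, an ATP-dependent chromatin remodeller, and all cells were harvested 3 days later. Both groups therefore shared strain, age, medium and infection, while the sources used here give neither the targeting sequence nor the share of infected cells. Each Cy5-labelled sample had an array of its own. Values below are log2 spot intensities after background correction and quantile normalization. A gene passed at an adjusted p under 0.05 in limma over all 17390 genes, and a log2 fold change is Chd7 KD minus Control, given with its standard error (SE).

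ELAVL proteins (also called Hu proteins) are RNA-binding proteins that hold AU-rich stretches of messenger RNAs, stabilise them and steer their splicing, and 3 of the 4 family members are neuronal. Doublecortin and its relatives bundle and stabilise microtubules in migrating young neurons. GAP-43 lies under the membrane of growth cones, the motile tips of growing axons, and its messenger RNA is a textbook target of the ELAVL4 protein. These genes are used as signs that a progenitor has begun to become a neuron, yet several are also read at lower levels in glial progenitors.

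RefSeq promoter windows (GRCm38.p6) were at hand for 8 of the 10 genes, not for Gap43 and Vxn, in 19 windows since some genes start at several places. The 250 bases before the start were searched on both strands for the E-box CANNTG, the core bound by basic helix-loop-helix factors such as the proneural proteins, and for CAGCTG, which is 1 form of it. Of 32851 promoter windows of the genome 66.2% held CANNTG and 13% held CAGCTG. The general form stood in 11 of the 19 windows, which is not a larger share than over the genome. These belonged to 5 of the 8 genes: Elavl3, Elavl4 and Rufy3, which fell, and Elavl2 and Dclk1, which did not pass. The narrower form stood in 5 of the 19 windows, and these belonged to Elavl3, Elavl4 and Rufy3, 3 of the 5 genes with a window that fell in the knockdown. It was not found in the windows of Dcx and Map2, which also fell, nor in those of Elavl2, Dclk1 and Tubb3, which did not pass. This narrower form was 1 of 10 motifs searched, and its split between genes that fell and genes that did not pass was not tested. The windows that held it are shown with 2 that held no E-box for comparison (a further Elavl4 window overlaps the one shown), in lower case from 5′ to 3′ with each E-box in capitals, and were picked after the search.
Elavl3 (chr9:22052024-22052273, minus strand): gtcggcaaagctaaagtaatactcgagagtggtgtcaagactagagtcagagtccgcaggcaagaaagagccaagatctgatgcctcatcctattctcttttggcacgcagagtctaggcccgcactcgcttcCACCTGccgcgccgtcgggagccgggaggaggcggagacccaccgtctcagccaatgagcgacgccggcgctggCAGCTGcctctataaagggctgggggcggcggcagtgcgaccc
Elavl4, second window listed (chr4:110287528-110287777, minus strand): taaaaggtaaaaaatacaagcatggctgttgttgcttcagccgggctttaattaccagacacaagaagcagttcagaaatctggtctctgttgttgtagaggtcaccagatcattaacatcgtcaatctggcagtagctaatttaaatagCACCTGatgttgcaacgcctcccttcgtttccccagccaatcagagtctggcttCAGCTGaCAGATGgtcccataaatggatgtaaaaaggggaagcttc
Rufy3, first window listed (chr5:88564790-88565039, plus strand): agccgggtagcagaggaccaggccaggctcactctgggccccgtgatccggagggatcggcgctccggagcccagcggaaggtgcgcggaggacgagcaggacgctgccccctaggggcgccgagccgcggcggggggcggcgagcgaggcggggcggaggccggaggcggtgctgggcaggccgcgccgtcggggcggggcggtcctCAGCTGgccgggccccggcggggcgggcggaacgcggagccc
Rufy3, second window listed (chr5:88583263-88583512, plus strand): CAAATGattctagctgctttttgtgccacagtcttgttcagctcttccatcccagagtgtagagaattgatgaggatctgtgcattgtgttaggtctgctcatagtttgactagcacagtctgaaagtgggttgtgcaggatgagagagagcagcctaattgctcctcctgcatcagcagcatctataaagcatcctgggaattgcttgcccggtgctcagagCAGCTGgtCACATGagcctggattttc
Dcx, first window listed (chrX:143933220-143933469, minus strand): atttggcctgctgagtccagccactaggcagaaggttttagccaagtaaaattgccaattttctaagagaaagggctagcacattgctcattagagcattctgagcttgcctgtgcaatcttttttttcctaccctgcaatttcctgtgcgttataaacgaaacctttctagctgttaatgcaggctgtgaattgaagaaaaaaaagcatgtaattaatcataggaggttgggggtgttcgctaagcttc
Tubb3 (chr8:123411303-123411552, plus strand): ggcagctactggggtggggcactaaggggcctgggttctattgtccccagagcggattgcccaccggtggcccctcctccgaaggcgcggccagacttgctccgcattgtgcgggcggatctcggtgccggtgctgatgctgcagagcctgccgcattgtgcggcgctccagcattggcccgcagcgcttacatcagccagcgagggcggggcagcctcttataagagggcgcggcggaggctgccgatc

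In these letters CAGCTG began 43 bases before the start of Elavl3, 46 bases before that of Elavl4, and 42 and 27 bases before the 2 starts of Rufy3. Counted from the start of the overlapping Elavl4 window, which is not shown, it lay 62 bases before. In the Elavl4 window shown another E-box, CAGATG, followed at 39 bases, and CAGATG occurred in 14.4% of all windows. The left part of the RE1 element, TTCAGCACC, to which the repressor REST binds as part of a longer motif, was in no window of these genes and in 0.301% of all windows. The core letters ACAATG, one form of the SOX motif, were found in Elavl4, Rufy3, Dclk1 and Tubb3 and in 10.7% of all windows. Of the 10 motifs searched, the CCAAT box was shared by most of the genes: CCAAT stood in 12 of the 19 windows, some of which overlap, for 6 of the 8 genes (not Rufy3 and Map2), and in 33.8% of all windows. GC content ran from 41.6% in the first Dcx window to 81.2% in Map2, against a median of 52.4% over all windows. A match is a run of letters and not a shown binding site.

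The targeted gene was lower in every knockdown sample. The brighter Chd7 probe read 9.44, 9.20 and 9.47 on the arrays of Control replicates 1 to 3, against 8.54, 8.44 and 8.48 on those of Chd7 KD replicates 1 to 3, a log2 fold change of -0.88 (SE 0.0855). The dimmer Chd7 probe gave -0.48 (SE 0.0676), also without overlap, and the mean of the probes gave -0.68. Over all genes 896 were lower and 781 higher, together 9.64% of those tested. In the authors' processed values these were 737 lower and 356 higher, and with the replicate number as a block 1293 and 1284. The arrays had median raw signals of 83.4 to 89.4, with blank spots at 58.9 to 61.9, and the number of arrays limits the precision. The labels do not say whether replicates were separate cultures, so errors and p-values reflect the spread among these 6 samples alone, and that spread may be technical.

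Of the 10 early neuronal genes, 7 fell in the knockdown, 0 rose (also at an unadjusted p under 0.05 in limma) and 3 did not pass. Over all genes tested 5.15% passed as lower and 4.49% as higher, and since this comparison helped to choose the genes, nothing is read from the difference. Their median log2 fold change was -0.46, against 7.7e-04 over all genes, and all 10 values were negative, that of Dclk1 by only -3.2e-04. The largest falls were those of Vxn, Rufy3, Gap43, Dcx and Elavl4, and the arrays of the groups did not overlap for the 7 genes that fell, and overlapped for the other 3. Over all genes 15.4% were lower without overlap, and 29.9% did not overlap in either direction. Of the 14 probes 10 did not overlap, and all 14 had a negative value. In bulk RNA fewer cells of a type and less RNA per cell cannot be told apart.

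**Figure D1:**
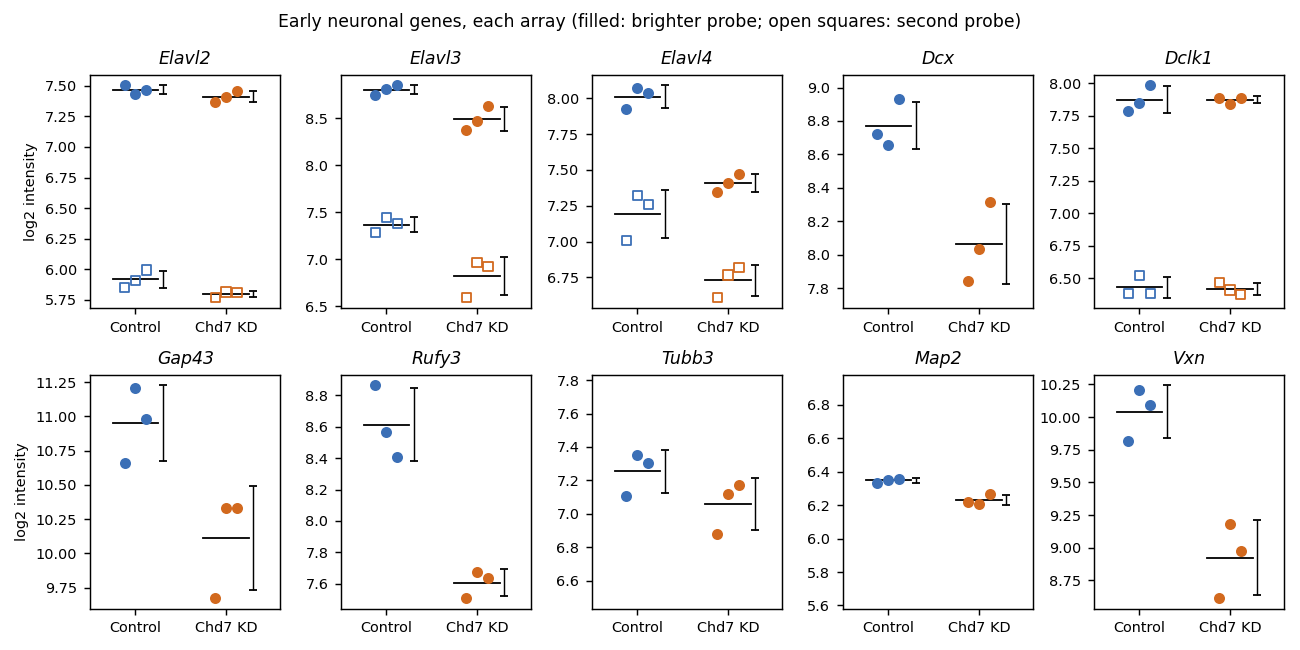
Log2 intensity (vertical axis, scale differs between panels) of each early neuronal gene on each of the 3 Control and 3 Chd7 KD arrays, with filled circles for the brighter probe, open squares for the second probe where there is one, lines for group means and error bars for 1 SD. The groups stand apart for Vxn, Rufy3, Gap43, Dcx, Elavl4 and Elavl3, and overlap for Elavl2 (brighter probe), Dclk1 and Tubb3.

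Among the ELAVL genes the 3 neuronal members differed in size of change. Elavl4 (HuD), which is expressed early in neuronal differentiation, read 7.92, 8.07 and 8.04 on the arrays of Control replicates 1 to 3, against 7.35, 7.41 and 7.47 on those of Chd7 KD replicates 1 to 3. The lowest control lay 0.45 above the highest knockdown array. Elavl4 fell by 0.60 on the log2 scale (SE 0.0646), to 65.9% of the control intensity. Its second, dimmer probe read 7.01, 7.32 and 7.26 on the Control arrays, against 6.61, 6.77 and 6.82 on the Chd7 KD arrays, again without overlap, a log2 fold change of -0.46. The 2 probes thus gave falls of like size on separate spots of the same arrays.

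Elavl3 (HuC), a marker of newly born neurons, read 8.75, 8.81 and 8.85 on the Control arrays, against 8.37, 8.48 and 8.63 on the Chd7 KD arrays on its brighter probe. The groups were separate, but only by 0.12. Elavl3 fell by 0.31 (SE 0.0792) on this probe and showed a log2 fold change of -0.54 on its dimmer probe, with 7.29, 7.44 and 7.38 against 6.59, 6.96 and 6.92. Chd7 KD replicate 1 was the lowest array on both probes. The call on the brighter probe did not hold without any 1 of Control replicates 1, 2 or 3 or Chd7 KD replicates 1 or 2 (adjusted p in limma up to 0.134). It was also lost with median scaling (0.0712), with the gain set as a block (0.0652) or without both arrays numbered 1 (0.110). With the replicate number as a block it held (0.0132).

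Elavl2 (HuB), the remaining neuronal member, did not pass. Its brighter probe read 7.51, 7.43 and 7.47 on the Control arrays, against 7.37, 7.41 and 7.46 on the Chd7 KD arrays, and the groups overlapped. The log2 fold change was -0.056 (SE 0.0538). The second Elavl2 probe lay close to the detection limit, with raw signals of 63.7 to 72 against limits of 60.6 to 64.0, and gave -0.12. Elavl1 (HuR), the family member that most cells express and which was not among the 10 genes, had a log2 fold change of -0.0050 (SE 0.0889). The family thus ran from -0.60 for Elavl4 to about 0 for Elavl1, and the differences between its members were not tested.

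Within the doublecortin family Dcx and Dclk1 behaved differently. Dcx, the microtubule-binding protein of migrating young neurons, read 8.72, 8.66 and 8.93 on the Control arrays, against 7.84, 8.03 and 8.32 on the Chd7 KD arrays. Every control array was above every knockdown array, the nearest pair being 0.34 apart. Dcx fell by 0.71 (SE 0.120), to 61.3% of the control intensity. Its raw spot signals were 408, 425 and 513 against 252, 245 and 341.

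Dclk1, which joins a doublecortin domain to a protein kinase and is also made in radial glia and other progenitors, did not pass on either probe. Its brighter probe read 7.78, 7.85 and 7.98 on the Control arrays, against 7.89, 7.84 and 7.89 on the Chd7 KD arrays, a log2 fold change of -3.2e-04 (SE 0.0667). The knockdown arrays lay inside the range of the controls. The dimmer probe gave -0.012. Dclk2 and Dclk3, the remaining doublecortin-like kinases, had log2 fold changes of -0.084 (SE 0.0919) and -0.0019 (SE 0.0222). Dclk3 was near background, with a control mean of 5.99, which leaves little room for a fall. Of the 4 family members only Dcx passed.

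Both growth cone genes fell. Gap43, whose protein links membrane phosphoinositides and calmodulin to actin in the axon tip, read 10.66, 11.21 and 10.98 on the Control arrays, against 9.67, 10.33 and 10.33 on the Chd7 KD arrays. The replicates numbered 1 were the lowest of both groups. Gap43 fell by 0.84 (SE 0.192), to 56% of the control intensity. Leaving out Control replicate 2, Control replicate 3 or Chd7 KD replicate 1 ended the call (adjusted p up to 0.0941). Gap43 also missed the threshold in the authors' processed values (0.0532), with eBayes without a trend (0.0734) and with the gain set as a block (0.0643). In limma it passed with the replicate number as a block (SE 0.0823, adjusted p = 3.3e-04) and without both arrays numbered 1 (0.00929).

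Rufy3, a RUN-domain protein that keeps axon number and growth in check and works with fascin and drebrin on actin in growth cones, read 8.86, 8.57 and 8.41 on the Control arrays, against 7.51, 7.67 and 7.64 on the Chd7 KD arrays. The gap between the groups, 0.73, was larger than in any other of the 10 genes. Rufy3 fell by 1.0 (SE 0.109), to 49.9% of the control intensity, and 12 of 17390 genes had a larger fall. Rufy1, Rufy2 and Rufy4, which act in endosomal traffic or are less studied, had log2 fold changes of 0.045, 0.023 and 0.026, and none passed. Rufy2 and Rufy4 were dim, with control means of 6.16 and 6.12. Of Rufy3's partners, the drebrin gene Dbn1 fell by 0.38 (SE 0.0644, adjusted p = 0.00792), while the fascin gene Fscn1 read -0.051 (SE 0.0672).

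Vxn encodes vexin, a small protein that promotes neuronal differentiation in the vertebrate embryo. It read 9.81, 10.21 and 10.09 on the Control arrays, against 8.61, 9.18 and 8.97 on the Chd7 KD arrays. The lowest control was 0.63 above the highest knockdown array. Vxn fell by 1.12 (SE 0.149), to 46.1% of the control intensity, which only 4 of 17390 genes exceeded. As with Gap43, replicate 1 was the lowest array of each group.

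The 2 cytoskeletal genes changed little. Tubb3, the neuron-specific class III β-tubulin, read 7.11, 7.35 and 7.31 on the Control arrays, against 6.88, 7.12 and 7.17 on the Chd7 KD arrays. The groups overlapped, since Control replicate 1 was below Chd7 KD replicates 2 and 3. Its log2 fold change of -0.20 (SE 0.0906) did not pass, but passed with the replicate number as a block (adjusted p = 0.033, range over alternatives 0.0330 to 0.777). Map2, a microtubule-associated protein of neuronal cell bodies and dendrites, read 6.33, 6.35 and 6.36 against 6.22, 6.21 and 6.27.

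Map2 fell by 0.12 (SE 0.0309), a small change on a dim probe whose raw signal was 80.1 to 90.2. The lowest control was 0.067 above the highest knockdown array. This call was the weakest of the 7, lost when any single array was left out (adjusted p up to 0.169), with median scaling (0.082), with no filter on dim probes (0.0565), with the gain set as a block (0.0688), without both arrays numbered 1 (0.157) and in the authors' processed values (0.0641). With the replicate number as a block it held (adjusted p in limma 0.0426).

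The authors' own processed values, which follow the spot signal less the blank level and so do not carry the offset of 50, gave larger changes for the same genes. In them Rufy3 stood at 315, 252 and 229 on the Control arrays, against 102, 114 and 108 on the Chd7 KD arrays, 41.3% of control. Vxn stood at 650, 872 and 837 against 267, 395 and 328, 41.9% of control. For Gap43, Dcx and Elavl4 the share left was 53.4%, 53.9% and 55.8%. The dimmer a probe, the more the scale mattered: Map2 was at 92.3% of control with the offset and at 78.7% in the authors' values, where it read 22, 23 and 23 against 18, 16 and 19, and Tubb3 moved from 87.2% to 79.0%. Dclk1 remained at 96.8%. On both scales Vxn and Rufy3 were the lowest pair, with Vxn lower with the offset and Rufy3 in the authors' values. On their brighter probes Elavl2 and Dclk1 were nearest to no change. The second Elavl2 probe, close to the detection limit, read 4, 6 and 8 against 2, 3 and 3 in the authors' values, 53.4% of control.

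**Figure D2:**
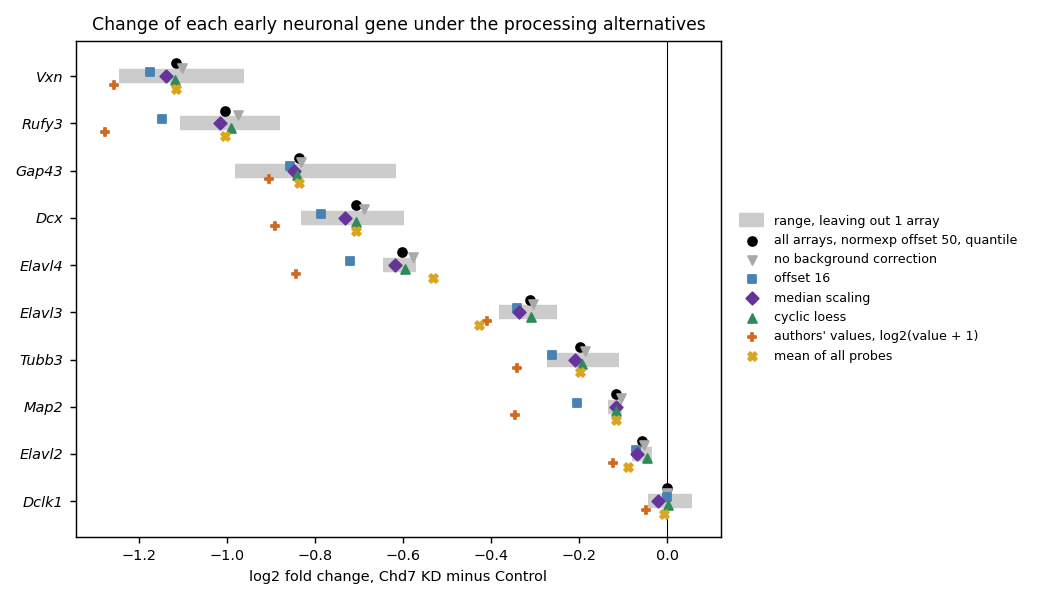
Log2 fold change (horizontal axis, Chd7 KD minus Control) of the 10 genes under 7 ways of processing the intensities, with grey bars for the range over fits that leave out 1 array. The authors' values and the offset of 16 lie left of the main value for the genes that fell, with Rufy3 reaching -1.28, and the bars of Gap43 are the widest.

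The count of genes that fell depended on single arrays. Without Control replicate 2, Control replicate 3 or Chd7 KD replicate 1 it was 4, as with the scanner gain set as a block. Within each set of 3 arrays that shared a scanner gain, which sets 2 arrays of a group against 1 of the other, 0 of the 10 passed, and only 39 of all genes did in each. The log2 fold changes in these sets were -1.04 and -0.83 for Rufy3, -0.83 and -1.30 for Vxn, -0.66 and -0.85 for Dcx, and -0.59 and -0.63 for Elavl4. Elavl4, Dcx, Rufy3 and Vxn passed in every fit other than these 2.

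Some of the genes also varied together from array to array within each group. After subtraction of the group means, Gap43 correlated over the 6 arrays with Tubb3 (r = 0.976) and Vxn (0.950), Elavl4 with Tubb3 (0.951) and Gap43 (0.888), and Elavl3 with Dcx (0.924). Gap43, Tubb3, Vxn, Elavl3 and Elavl4 were each lowest in replicate 1 of both groups. Gap43 deviated by -0.29 in Control replicate 1 and by -0.44 in Chd7 KD replicate 1, and Vxn by -0.22 and -0.31. Other genes did not go with them. Elavl2 correlated with Elavl4 and Vxn at 0.0088 and 0.0089, and Dclk1 with Gap43 at 0.12. Rufy3 was highest in Control replicate 1, at 0.25 above the group mean, had negative values with every other gene but Elavl2 (0.577), and correlated with Dclk1 at -0.904. These values rest on 6 arrays of the same RNA samples and normalization and carry no test.

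**Figure D3:**
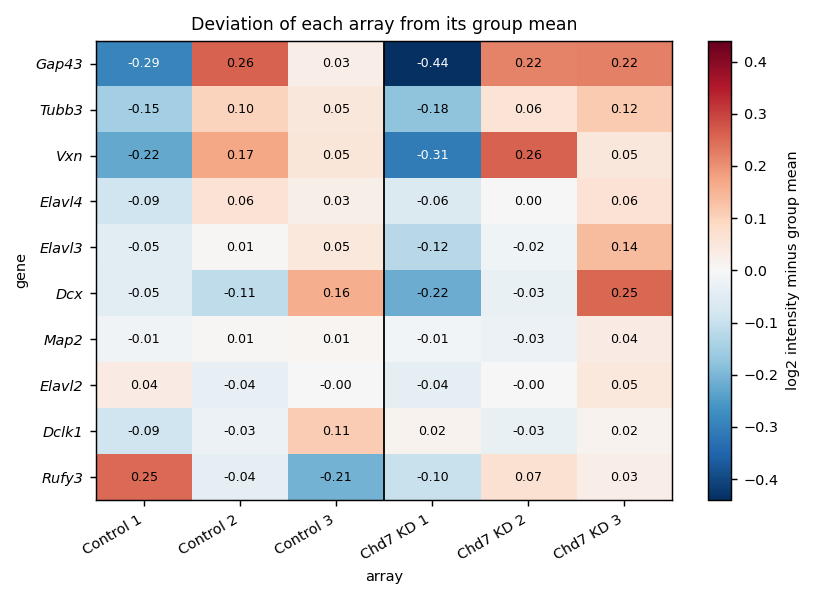
Deviation of each array (columns) from its group mean in log2 intensity, for the 10 genes (rows), with blue below and red above the mean. Replicate 1 is lowest in both groups for Gap43, Tubb3, Vxn, Elavl3 and Elavl4, while Rufy3 is high in Control replicate 1 (0.25).

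The genes whose profile over the 6 arrays was most like the mean standardised profile of the 10 were Plppr5, Ckmt1, Zfp608, Dnpep, Map2k6 and Id2 (Pearson's r 0.993 to 0.997). Plppr5, a plasticity-related membrane protein gene, had the highest likeness and fell by 0.69 (SE 0.100). Id2, an inhibitor of basic helix-loop-helix factors, fell by 0.74, the mitochondrial creatine kinase gene Ckmt1 by 0.31 and the kinase gene Map2k6 by 0.16. Zfp608 (-0.093) and Dnpep (-0.23) did not pass. The 10 genes themselves correlated with their own mean profile at 0.993 for Elavl3 down to 0.741 for Elavl2 and 0.183 for Dclk1. With 6 arrays in 2 groups such values tend to be high for a gene that is lower in the knockdown. They also depend on the variation within the groups: Rufy3, with the widest gap of the 10 genes, stood at 0.859. The values carry no test.

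The other lists were chosen, like the 10 genes, with earlier results of these data known. Among 23 relatives of the 10 genes, 4 fell, 0 rose and 19 did not pass (median -0.0050, against 7.7e-04 over all genes, of which 9.64% passed). Mapt, the axonal microtubule-associated protein tau, fell by 0.70 (SE 0.111, adjusted p = 0.00629), from 9.36, 9.55 and 9.59 to 8.56, 8.92 and 8.92. Basp1, which like Gap43 is a membrane-bound growth cone protein, fell by 0.65 (adjusted p = 0.0213), and Marcks, a further protein of this kind, by 0.38 (adjusted p = 0.0176). Tubb2b, a β-tubulin of neural progenitors and young neurons, fell by 0.46 (adjusted p = 0.00838), from 13.9 to 14.0 in the controls to 13.4 to 13.6 in the knockdown. β-tubulin genes are close in sequence, so the signal of a Tubb probe may include relatives. Basp1 did not pass when Control replicates 2 or 3 or Chd7 KD replicates 1 or 2 were left out (adjusted p up to 0.0783) or with eBayes without a trend (0.0527), Marcks not without Chd7 KD replicates 1 or 3 (up to 0.0709) or both arrays numbered 1 (0.0909), and Tubb2b not in the authors' values (0.0529). Without Chd7 KD replicate 1 the count of relatives that fell was 2. Marcksl1 (-0.31) did not pass except with the replicate number as a block (adjusted p = 0.0249), and the 18 others, among them Map1b (0.064), Map6 (-0.010) and Nrgn (0.060), lay between -0.44 and 0.11.

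Of 33 further axon growth genes 8 fell, 1 rose and 24 did not pass (median -0.046), against 5.15% lower and 4.49% higher over all genes. The list partly holds genes that were already known to fall here, so its direction is not independent. Dpysl3, a collapsin response mediator of the growth cone, fell by 1.47 (SE 0.169, adjusted p = 0.0019), and its relative Crmp1 by 0.52 (adjusted p = 0.00124). The stathmin genes Stmn3 and Stmn4, which regulate microtubule turnover in axons, fell by 0.90 (adjusted p = 0.00442) and 0.83 (adjusted p = 0.0276). The axonal adhesion gene Cntn1 fell by 0.64 (adjusted p = 0.0023), the intermediate filament gene Ina by 0.52 (adjusted p = 0.00489), and Fez1, an adaptor for axonal transport, by 0.30 (adjusted p = 0.0392). The axonal kinesin gene Kif1a rose by 0.32 (adjusted p = 0.0485).

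Stmn2, a stathmin widely used as a neuronal marker, read -0.017 (SE 0.0715), and the neurofilament genes Nefl, Nefm and Nefh read -0.073, -0.020 and -0.012. All were dim, with control means of 6.219 for Stmn2 and 6.315, 6.033 and 5.963 for the neurofilament genes. Such levels limit the fall that could be seen, although Map2, with a control mean of 6.35, passed as lower. The rise of Kif1a passed in only 7 of 21 alternatives: it was lost without any 1 of 5 arrays, all but Control replicate 1 (adjusted p up to 0.143), in the authors' values (0.129), and by a small margin with the offset of 16 (0.0509), cyclic loess (0.0518) or no filter on dim probes (0.0504). The call of Fez1 passed in 9 of 21 and was lost whichever array was left out (up to 0.131). Stmn4 did not pass without Control replicates 2 or 3 or Chd7 KD replicates 1 or 3 (up to 0.0976), in the authors' values (0.0623), with eBayes without a trend (0.0743) or with the gain set as a block (0.0565). With the replicate number as a block Uchl1 (-0.46, adjusted p = 0.028) and Rtn1 (-0.30, adjusted p = 0.00413) passed too.

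Of 17 genes for other neuronal RNA-binding proteins 3 fell, 0 rose and 14 did not pass (median -0.029), against 5.15% that fell over all genes. Ptbp2, the splicing repressor that takes over from Ptbp1 as neurons form, fell by 0.78 (SE 0.0722, adjusted p = 8.8e-04), to 58.3% of the control intensity. Nova1, a splicing regulator of neurons, fell by 0.49 (adjusted p = 0.00552) on its brighter probe, and its other probe read -0.12. Khdrbs2, a STAR-family splicing factor, fell by 0.21 (adjusted p = 0.0134), a call lost without Chd7 KD replicate 1 (0.0623) or both arrays numbered 1 (0.0839). Rbfox3, which encodes the neuronal marker NeuN, read 9.3e-04 (SE 0.0599). With the block Celf5 (-0.16, adjusted p = 0.00966) and Khdrbs3 (-0.28, adjusted p = 0.0276) passed, and the count was 5, as it was without Control replicate 1. Of 7 other proteins that bind AU-rich elements and often destabilise their targets, none passed in limma and 1 had an unadjusted p under 0.05: Zfp36l1 (-0.29, SE 0.0817), which passed only with the block (adjusted p = 0.0257).

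Of 10 genes that hold back neuronal genes or proneural factors, 3 rose, 4 fell and 3 did not pass (median -0.23). Over all genes 4.49% were higher and 5.15% lower. Rest, the repressor of neuronal genes in other cells, rose by 0.35 (SE 0.0756, adjusted p = 0.0221), from a mean of 6.93 (SD 0.104, n = 3) to 7.28 (SD 0.118, n = 3), while the log2 fold change of its other probe was -0.033. Its corepressor genes moved apart: Rcor1 rose by 0.11 (adjusted p = 0.0347) and Rcor2, the form abundant in neural progenitors, fell by 0.65 (adjusted p = 0.00177). Ptbp1, the splicing repressor of non-neuronal cells, rose by 0.40 (adjusted p = 0.0158). Hes5, a Notch effector, fell by 0.78 (adjusted p = 0.00313), Id2 by 0.74 (adjusted p = 0.0108) and Id3 by 0.48 (adjusted p = 0.0138), and Hes1 read 0.088.

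Each of the 3 rises was lost in some fits. Rest did not pass without Control replicate 2 or Chd7 KD replicates 2 or 3 (adjusted p up to 0.0801), in the authors' values (0.0536) or with the gain set as a block (0.0513), and Ptbp1 not without Control replicate 2 or Chd7 KD replicates 1 or 3 (up to 0.0622), in the authors' values (0.0704) or with median scaling (0.064). Rcor1 passed in 8 of 21 alternatives and was lost whichever array was left out (up to 0.117). Id3 was lost without Control replicate 2 or Chd7 KD replicates 1 or 3 (up to 0.0553) or both arrays numbered 1 (0.0773). With the replicate number as a block Id4 (-0.36, adjusted p = 0.01) passed as lower. The count of this list was 3 without Control replicate 2 or Chd7 KD replicate 3 and 4 without Chd7 KD replicate 1.

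Of 24 neurogenic transcription factor genes 1 rose, 2 fell and 21 did not pass (median -0.014), against 9.64% that passed over all genes. With the replicate number as a block Bcl11b (-0.16) passed too (adjusted p = 0.0229). Sox4, a SOX factor that drives pan-neuronal genes, fell by 0.64 (SE 0.0921, adjusted p = 0.00437), and Myt1, a zinc finger factor of young neurons and precursors, by 0.53 (SE 0.0459, adjusted p = 7.2e-04). Hes6 rose by 0.39 (adjusted p = 0.0439), a call lost without Control replicates 2 or 3 or Chd7 KD replicates 2 or 3 (up to 0.144) or with eBayes without a trend (0.0665). Sox11, the close relative of Sox4, read 0.11 (SE 0.0715), and the proneural genes Neurog2, Neurod1 and Neurod4 read -0.070, 0.065 and -0.026. Neurog2 and Neurod4 were near background, with control means of 5.84 and 5.78, which leaves little room for a fall. Among 9 genes of young GABAergic neurons 2 rose and 0 fell: Dlx1 by 0.38 (adjusted p = 0.0201) and Dlx2 by 0.25 (adjusted p = 0.0105), the first lost without Chd7 KD replicates 2 or 3 (up to 0.0685) and in the authors' values (0.053), and the second without both arrays numbered 1 (0.0599). Gad1, which makes GABA, read 0.13 (SE 0.106).

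Of 14 genes of the mature synapse 1 rose, 0 fell and 13 did not pass (median -0.0040), against 4.49% higher and 5.15% lower over all genes. In limma 2 had a negative value at an unadjusted p under 0.05, Camk2a (-0.058) and Syn2 (-0.15), and their arrays did not overlap. Over all genes 15.4% were lower without overlap. The Camk2a probe was near background, with a control mean of 5.97, and the gene's other probe read 0.0048. Camk2b rose by 0.47 (SE 0.104, adjusted p = 0.0236), lost without Control replicates 1 or 3 or Chd7 KD replicates 1 or 2 (up to 0.0866), without both arrays numbered 1 (0.121) and in the authors' values (0.0777), while Snap25 and Syn1 read 0.011 and 0.0012. Syt1 read 0.20 and passed with the block (adjusted p = 0.017). Syn1 was near background, with a control mean of 5.86, which leaves little room for a fall.

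**Figure D4:**
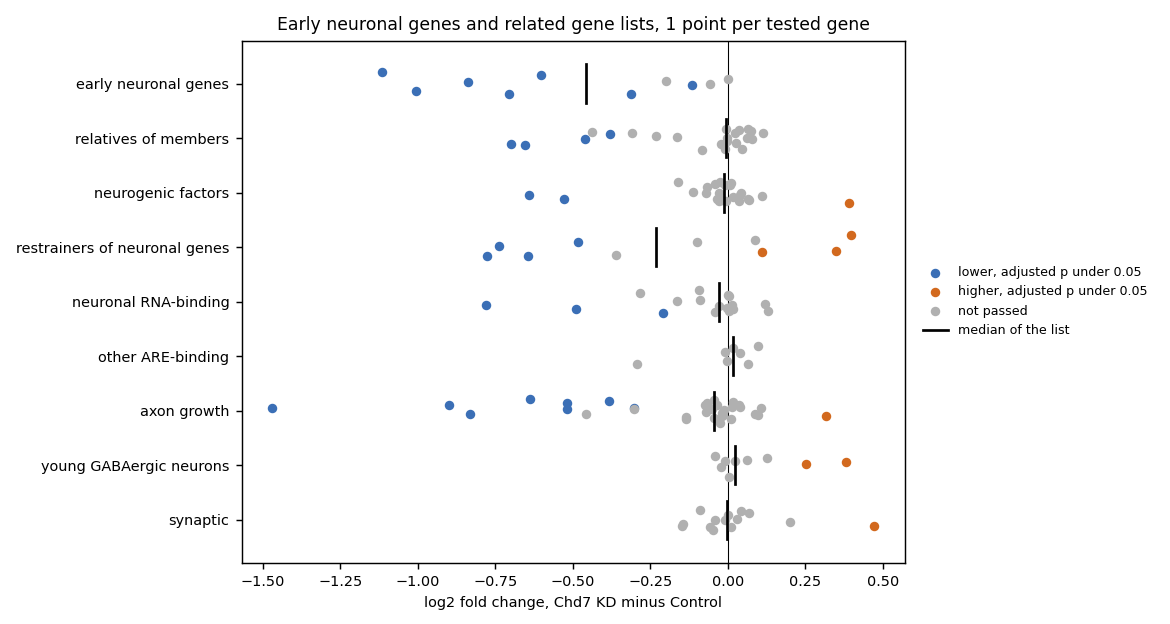
Log2 fold change (horizontal axis, Chd7 KD minus Control) of each tested gene in the early neuronal set and 8 related lists, with blue for genes that passed as lower, orange for genes that passed as higher, grey for the rest and a black line for the list median. The 10 genes have a median of -0.46, and the medians of the other lists lie between -0.23 and 0.022.

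Markers of other cell types were read on the same arrays. Of 12 markers of differentiated neurons 11 were above the detection limit on all 6 arrays and Slc17a6 on none. Their summed raw signal above the blank level was 208 to 252 in the controls and 227 to 282 in the knockdown, and in limma 0 of the 11 tested passed and 0 had an unadjusted p under 0.05. In these sums Gad2 gave 35.6 in Control replicate 1 and 1.3 to 5.7 on the other arrays, on a probe other than the one tested in limma. Each of these markers was dim, the highest reading being 61.6 (Syt1, Chd7 KD replicate 3), which limits the fall that could be seen. Rbfox3, Snap25 and Syt1, with control means of 6.46, 6.47 and 6.49, were nevertheless brighter than Map2 (6.35), which passed as lower. Of 7 markers of oligodendrocyte precursors, the labelled cell type, all were above the limit on all 6 arrays, with sums of 12572 to 14785 against 9647 to 11691. Of these markers 6 fell, led by Pdgfra (-1.36), against 5.15% that fell over all genes. Sums for 8 astrocyte markers were 11556 to 12083 against 9843 to 12377, and for 8 microglial markers 101 to 110 against 99.1 to 127. Endothelial and mural markers (71.7 to 81.6 against 68.7 to 85.9) and fibroblast markers (69.1 to 77.9 against 68.0 to 92.2) had low sums in both groups, although 3 of 8 and 5 of 6 of these markers were above the detection limit on all 6 arrays. Neural progenitor markers summed to 53869 to 66254 against 57261 to 72198, most of it from Fabp7 (39902 to 51047 against 43729 to 56771). Of these 7 markers 5 had negative log2 fold changes (median -0.14 over the 7), and 1, Hes5, fell. Olig1 and Aldoc likewise made up most of the precursor and astrocyte sums. The 7 markers of differentiating oligodendrocytes summed to 1134 to 1714 against 1129 to 1336, and 1 of them, Ugt8a, fell by 0.54. The 8 astrocyte, 6 microglial, 4 endothelial and mural and 6 fibroblast markers tested did not pass, although 3 astrocyte and 1 fibroblast marker had an unadjusted p under 0.05 in limma. With the replicate number as a block the astrocyte markers Slc1a2 (-0.47, adjusted p = 0.0163) and Gjb6 (0.19, adjusted p = 0.0181) passed in opposite directions. The other Slc1a2 probe read 0.087 in the main fit, and Gjb6 was near background, with a control mean of 5.97. The block also gave calls for the precursor marker Olig1 (-0.24, adjusted p = 0.0371) and the progenitor marker Prom1 (-0.21, adjusted p = 0.0307) as lower, the myelin genes Mog (0.24, adjusted p = 0.0112) and Mobp (0.17, adjusted p = 0.0119) as higher, and the neuronal marker Syt1, given above. Ugt8a did not pass when Control replicates 2 or 3 or Chd7 KD replicate 1 were left out (adjusted p up to 0.0605). The part of the precursor markers' fall in the change of the early neuronal genes was not tested.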

How the data were processed

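RNA of 6 samples was amplified, labelled with Cy5 and hybridised to TORAY arrays, per the labels' protocols. Per the file headers, each deposited intensity is a spot's median at 635 nm, which the authors joined from scans at 3 gains by least squares. The authors' second, processed set of intensities has no stated method. It followed the spot signal less the blank mean (correlation of logs over 0.999), with a median of 25, and left 1717 to 2016 values blank per array.

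Intensities were corrected with normexp (offset 50, no local background), quantile normalized and averaged per probe as log2 in limma 3.58.1 (R 4.3.3), and figures drawn with matplotlib 3.10.9. The offset shrinks changes of dim probes. Probes above the blank mean plus 2 SD on at least 3 arrays were tested, and 1 badly flagged probe was left out. Symbols came from the platform annotation (20690 probes with 1 symbol, 2783 with none), updated by Entrez ID to RefSeq (GRCm38.p6). A gene was represented by its probe with the highest mean. Groups were compared with lmFit and eBayes with a trend, two-sided, with Benjamini-Hochberg adjustment over 17390 genes, and the procedure was tested on simulated data.

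The genes and lists were chosen with earlier results of these data known. Named were the 10 genes, Chd7, their relatives, of each other list all that passed or up to 4 with the smallest p, and the 6 most similar profiles. Further list members, and examples among the relatives, were named after their values were seen. Some list genes and a protein table were not analysed here.

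Replicate numbers are shared between groups. Arrays of the same number deviated together from their group means (correlations 0.36, 0.38 and 0.23), so the numbers were taken to pair the arrays, an inference from the data. Values with this block stand beside the calls it changes. Gain slopes in the file headers formed 2 sets (0.464 to 0.467 and 0.478 to 0.479), treated as possible batches. The low set held Control replicates 1 and 2 and Chd7 KD replicate 2, and the high set the other arrays. Both arrays numbered 2 were thus in the low set and both numbered 3 in the high set. For these, replicate number and gain set cannot be told apart.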

Additional observations from a re-analysis of the deposited data

How the results depend on the processing

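There were 21 alternatives, of which leaving out both arrays numbered 1 was chosen after seeing the data. Of the early neuronal genes 7 passed as lower, 4 with the gain set as a block, 0 within either gain set and 4 to 6 when 1 array was left out, and 0 passed as higher in each. Dclk1, not called, turned sign with an offset of 16 (8.6e-05), cyclic loess (0.0024), array weights (0.0022), within the low gain set (0.025) and when 1 array was left out (-0.044 to 0.056). The values for Chd7 within the gain sets were -0.88 and -0.95, neither past the threshold with 2 arrays against 1, where the lone array is assumed to vary like the others. The count over all genes was 1677, and 1093 in the authors' values, 2577 with the replicate block, 39 within each gain set, 800 without both arrays numbered 1 and 750 to 1453 without 1 array.

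Within the low and high gain sets 0 and 0 genes passed of the axon growth, GABAergic, restraining, RNA-binding and synaptic lists, 1 and 0 of the relatives and 0 and 1 of the neurogenic factors. With the replicate block 5 RNA-binding, 2 synaptic and 1 other AU-rich binding gene passed, and with array weights 5 RNA-binding genes. The block changed no call of the early neuronal genes other than Tubb3. In the authors' values 4 restraining, 1 GABAergic and 0 synaptic genes passed, and without both arrays numbered 1, 1 GABAergic and 0 synaptic. Leaving out 1 array gave 2 to 4 relatives, 3 to 6 restraining, 2 to 5 RNA-binding, 1 to 2 GABAergic and 0 to 1 synaptic genes. The causes were not tested. Changes of dim probes such as those of Map2, the second Elavl2 probe, Dclk3, Neurog2, Neurod4, Syn1 and the neurofilament genes are limited by signal over background. A value near 0 on such a probe does not show unchanged expression.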
